A study of Mus musculus with 4 samples.

Results

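Genes of the response to low oxygen and of glycolysis were followed across 4 arrays of cultured podoplanin-selected cells from tumour-draining lymph nodes of mice. The titles call the cells LN EC, and marker values that bear on their identity are given below. The set holds 36 genes fixed by name, chosen with earlier results of these data known. A gene counted as measured when the array annotation gave a probe set that symbol alone. This was so for 33 of the 36, among 18193 genes with such a probe set. Ca9 and Ero1l were found under their current mouse symbols Car9 and Ero1a. Bnip3l, Gpi1 and Eno1 had no probe set with their symbol alone and were not analysed here. Of the 33, 21 had several probe sets, 74 in all for the set, and each gene is represented by whichever of them was brightest on average.

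The cells came from female SCID/NOD mice, an immunodeficient strain, aged 6 to 8 weeks, that carried subcutaneous tumours of human embryonic kidney 293 cells. In the metastatic group the tumours were of 293-VEGF-D cells, which overexpress the lymphatic growth factor VEGF-D, and in the non-metastatic group they were of 293-Apex cells. Tumours had grown for 3 to 4 weeks and reached 1600 to 2500 mm3 when the left axillary node was removed. A preparation combined the nodes of between 1 and 5 mice. Every preparation was digested, grown briefly in an endothelial medium and then captured on beads against podoplanin, which lymphatic endothelial cells display and fibroblastic reticular cells display as well. Each group had 2 preparations that the titles call biological replicates, with 1 array each. Nodes of the metastatic group were used only if visibly enlarged, and the sorting label states depletion of tumour cells and leukocytes before culture for that group and none for the other, whereas the growth protocol describes the depletion for all. These features go with the group and cannot be told apart from metastasis here.

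Cells sense oxygen through prolyl hydroxylases, encoded by the Egln genes, which mark the alpha subunits of the hypoxia-inducible factors (HIF) for destruction while oxygen is present. When oxygen runs low the subunits, encoded by Hif1a and Epas1, escape and bind DNA at short elements with the core ACGTG or GCGTG. Known targets move glucose into the cell (Slc2a1), run glycolysis (Pfkl, Aldoa, Pgk1, Ldha), export lactate (Slc16a3), shut pyruvate dehydrogenase (Pdk1) and remove mitochondria (Bnip3). Egln3 and Egln1 are targets themselves and form a feedback loop. Other signals, such as growth factors acting through mTOR, can raise many of the same genes.

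The upstream sequences of the 5 members with the widest gap between the metastatic arrays are shown first, since most of what follows concerns how these genes differed between arrays. Tpi1 and Pfkm are added for contrast. Tpi1 had a gap of 1.10 log2 units, smaller than those 5, without either core in this window. Pfkm had the core with a gap of only 0.17. Each sequence is the 250 bases before a RefSeq transcript start in GRCm38.p6, written 5′ to 3′ on the gene's strand, and capitals mark ACGTG or GCGTG on either strand. Pfkm has several starts, of which 1 is shown.
Slc16a3, chr11:120948817-120949066, plus strand: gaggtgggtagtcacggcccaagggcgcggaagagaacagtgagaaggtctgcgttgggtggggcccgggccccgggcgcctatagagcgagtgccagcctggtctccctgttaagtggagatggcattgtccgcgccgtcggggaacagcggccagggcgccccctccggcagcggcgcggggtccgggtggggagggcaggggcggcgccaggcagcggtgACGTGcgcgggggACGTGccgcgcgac
Egln3, chr12:54203875-54204124, minus strand: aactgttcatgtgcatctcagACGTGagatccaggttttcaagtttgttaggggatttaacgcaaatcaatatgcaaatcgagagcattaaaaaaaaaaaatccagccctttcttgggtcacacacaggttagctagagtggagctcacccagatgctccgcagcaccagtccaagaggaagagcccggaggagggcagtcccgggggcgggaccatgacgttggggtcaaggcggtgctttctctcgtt
Ankrd37, chr8:45999851-46000100, minus strand: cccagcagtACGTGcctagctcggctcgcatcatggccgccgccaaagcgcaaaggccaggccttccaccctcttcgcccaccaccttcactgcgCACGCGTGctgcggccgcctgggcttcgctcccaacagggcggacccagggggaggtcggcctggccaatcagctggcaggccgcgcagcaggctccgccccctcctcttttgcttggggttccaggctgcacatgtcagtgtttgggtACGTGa
Pfkl, chr10:78009808-78010057, minus strand: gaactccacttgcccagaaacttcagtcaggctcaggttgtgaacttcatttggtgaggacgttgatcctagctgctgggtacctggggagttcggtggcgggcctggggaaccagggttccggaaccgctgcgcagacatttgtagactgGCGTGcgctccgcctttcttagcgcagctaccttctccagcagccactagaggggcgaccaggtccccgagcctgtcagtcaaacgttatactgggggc
Bnip3, chr7:138909507-138909756, minus strand: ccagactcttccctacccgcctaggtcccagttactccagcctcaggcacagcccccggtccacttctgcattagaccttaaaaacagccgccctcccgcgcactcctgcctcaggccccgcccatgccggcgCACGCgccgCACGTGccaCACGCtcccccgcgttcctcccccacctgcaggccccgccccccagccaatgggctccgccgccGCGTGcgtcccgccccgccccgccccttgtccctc
Tpi1, chr6:124814159-124814408, minus strand: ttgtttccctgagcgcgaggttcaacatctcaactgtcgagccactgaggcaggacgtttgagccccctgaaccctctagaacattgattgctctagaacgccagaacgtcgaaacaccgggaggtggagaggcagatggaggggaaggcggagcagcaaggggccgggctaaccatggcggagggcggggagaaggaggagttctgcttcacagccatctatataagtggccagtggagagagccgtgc
Pfkm, chr15:98092339-98092588, plus strand: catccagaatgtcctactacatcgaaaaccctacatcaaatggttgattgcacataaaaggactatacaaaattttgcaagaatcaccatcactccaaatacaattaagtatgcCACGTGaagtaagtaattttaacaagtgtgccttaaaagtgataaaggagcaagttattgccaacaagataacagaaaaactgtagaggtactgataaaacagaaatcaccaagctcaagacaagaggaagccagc
A start window was found for 30 of the 33 measured members, 44 windows in all, since some genes have several starts. ACGTG was present on either strand in 50.0% of these windows and in 16.6% of 32851 windows of all genes. For these windows, all genes means 27025 genes with a RefSeq start, whether or not the arrays measured them. GCGTG was present in 47.7% against 28.2%, and at least 1 of the cores in 77.3% against 38.6%. Both cores contain CG, and the members' windows are richer in it, with a median of 13.5 CG pairs against 6.0 and a median GC content of 60.4% against 52.4%. Members with a gap of over 1 log2 unit between the metastatic arrays had a core in 84.2% of 19 windows, and the others in 72.0% of 25. Counted by gene, in any of its windows, this was 13 of 14 and 14 of 16, nearly the same share. The windows of the wide-gap members were also richer in CG pairs (median 14.0 against 11.0). CACGTG, as seen for Bnip3 and Pfkm, reads as ACGTG on both strands. A match of letters is a description of the window and not a binding site.

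All values below are log2 signals after quantile normalization, so that 1 unit is a doubling, given in the order replicate 1, replicate 2. The deposited array medians lay between 5.88 and 6.00, and the number of arrays limits the precision. Control probe sets at the 3′ and 5′ ends of Gapdh differed by -0.18, -0.15, -0.16 and -0.16 on metastatic replicates 1 and 2 and non-metastatic replicates 1 and 2 (log2, 3′ minus 5′, as deposited). Those of Actb differed by 0.15, 0.19, 0.11 and 0.11 in the same order, highest on metastatic replicate 2, and the part of this in the results was not tested. Podoplanin (Pdpn) had 10.89 and 10.83 on the metastatic arrays and 10.35 on both non-metastatic ones. Prox1, the defining transcription factor of lymphatic endothelium, was dim on every array (3.74 to 4.17, below the median of 5.95 for all probe sets), as was the endothelial gene Pecam1 (4.76 to 5.36). Lyve1, which binds hyaluronan on lymphatic vessels and some macrophages, had 6.32 and 4.23 on the metastatic arrays and 8.26 and 7.80 on the non-metastatic ones. The fibroblast genes Pdgfra and Col1a1 had 12.00 to 12.62 and 13.60 to 13.91. Of the measured markers, 3 of 6 lymphatic endothelial and 5 of 10 endothelial genes had a mean above that median, while Prox1 and Pecam1 did not. These are smaller shares than over all genes, where 11922 of 18193 had a mean above it. Of the reticular fibroblast markers 7 of 8 did. The cells are called podoplanin-selected cells here.

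Metastatic replicate 2 stood apart from the other 3 arrays. It gave the highest of the 4 values for 29 of the 33 members, where 29.0% of all genes had their highest value there. Relative to the non-metastatic mean, the median member was 1.09 higher on metastatic replicate 2 and 0.01 higher on metastatic replicate 1, against 0.01 and -0.01 for all genes. The 2 metastatic arrays differed by a median of 0.97 over the members (1.95-fold), with metastatic replicate 2 higher for 31 of 33 (53.0% of all genes). The 2 non-metastatic arrays differed by a median of 0.00 over the same genes, and none of the 33 was over 1 unit apart there (0.737% of all genes were). For 15 members metastatic replicate 2 was over 1 unit above metastatic replicate 1, a distance seen for 0.539% of all genes, and for 7 it was over 2 units above, against 0.055%. Only 10 of the 18193 genes had a gap of over 2 units, so 7 of those 10 belong to this set. The set was chosen with earlier results of these data known, so these shares are no independent check. In the opposite direction 1 member, Epas1, was over 1 unit apart, against 1.22% of all genes. Metastatic replicate 1 was above both non-metastatic arrays for 15 members and below both for 11, where 36.7% and 40.8% of all genes were. These gaps set 1 array against 1 array and have no test.

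**Figure D1:**
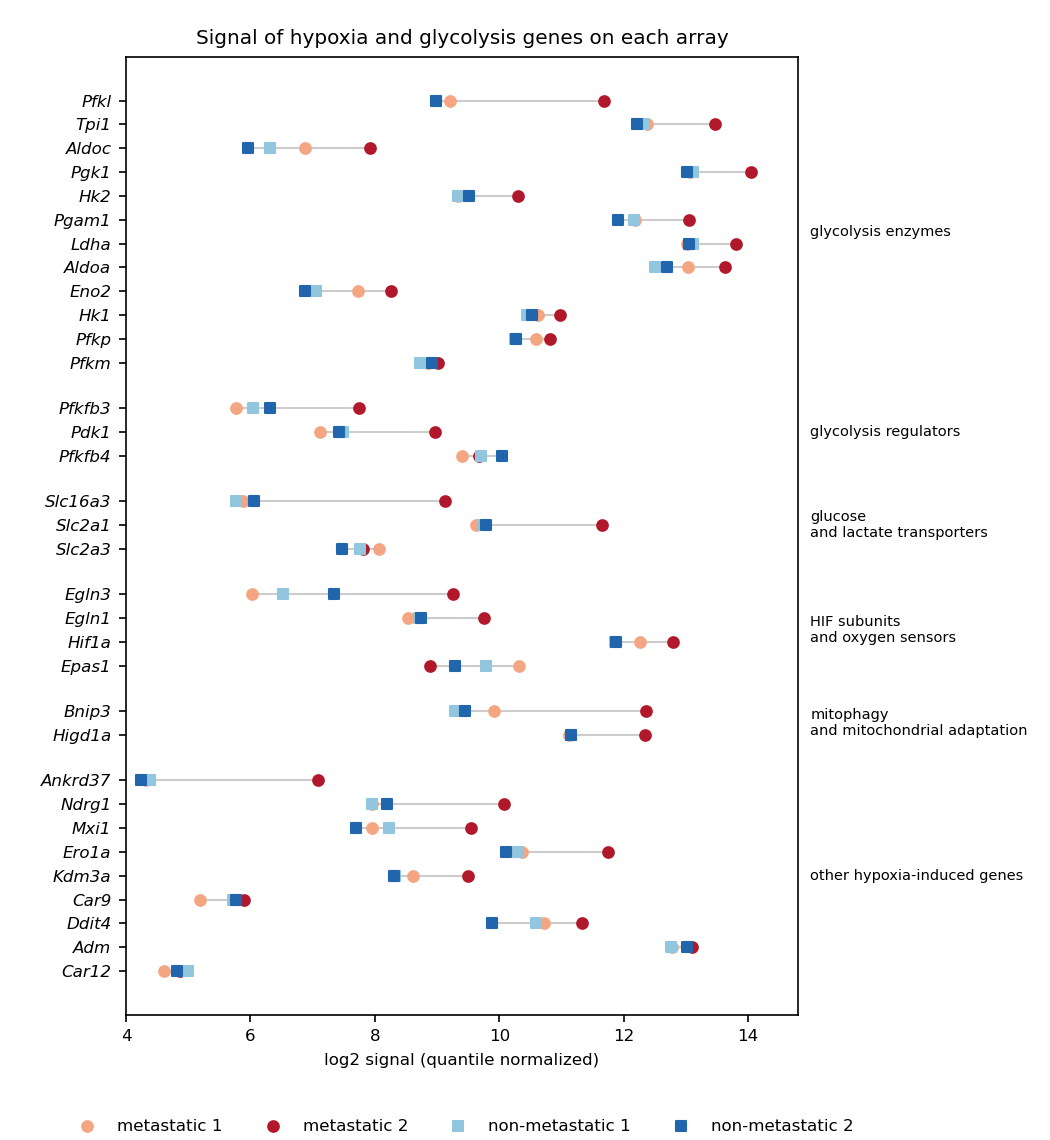
Log2 signal (horizontal axis, quantile normalized) of the 33 measured genes on each of the 4 arrays, grouped by role; circles are metastatic and squares non-metastatic arrays, and a grey line spans the 4 values. Metastatic replicate 2 is the rightmost point for 29 of the 33 genes, and the other 3 arrays lie close together for most of them.

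Glucose enters and lactate leaves through the transporters. Slc16a3, the lactate exporter MCT4, had 5.88 and 9.13 on the metastatic arrays and 5.77 and 6.05 on the non-metastatic ones. Slc2a1, the glucose transporter GLUT1, had 9.62 and 11.65 against 9.74 and 9.78. For both genes metastatic replicate 1 lay among or just below the non-metastatic arrays, and metastatic replicate 2 was 4.06-fold above it for Slc2a1. The lower values of Slc16a3 lie about the all-probe-set median of 5.95, so its gap of 3.25 may be limited by background and is given without a fold. All 3 probe sets of Slc2a1 had this gap, at 2.02, 2.07 and 2.21. Slc2a3, the transporter GLUT3, did not follow, with 8.06 and 7.81 against 7.76 and 7.47, and its 4 probe sets were all lower on metastatic replicate 2 than on metastatic replicate 1, by 0.23 to 0.31.

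All 12 measured enzymes of glycolysis had their highest value on metastatic replicate 2, with a median gap of 0.83 to metastatic replicate 1. Pfkl, the liver-type phosphofructokinase that catalyses the committed step, had the widest gap: 9.20 and 11.68 against 8.99 and 8.99. The other phosphofructokinase genes had far smaller ones, with 10.59 and 10.82 against 10.25 and 10.27 for Pfkp, and 8.86 and 9.02 against 8.72 and 8.91 for Pfkm. On these probe sets the gap was 2.48 for Pfkl, 0.23 for Pfkp and 0.17 for Pfkm. The other probe sets of Pfkl had gaps of 2.14 and, on a dim one (mean 5.16), 0.16, and those of Pfkp had -0.05 and -0.10, so that the sign for Pfkp depends on the probe set.

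The hexokinases, which trap glucose by phosphorylation, also differed between isoforms. Hk2 had 9.33 and 10.30 against 9.34 and 9.51, with only metastatic replicate 2 apart. Hk1 had 10.62 and 10.98 against 10.45 and 10.53, a gap of 0.36 between the metastatic arrays, compared with 0.97 for Hk2. Of the aldolases, Aldoc had 6.87 and 7.92 against 6.31 and 5.96, and Aldoa 13.04 and 13.62 against 12.50 and 12.70. Both metastatic arrays were above both non-metastatic arrays for these aldolase genes, with metastatic replicate 2 the higher. The second probe set of Aldoc was dim (mean 4.23) and had no such gap (-0.11), and the 5 probe sets of Aldoa, whose gaps were 0.59 to 0.74, carry a suffix for possible binding to other transcripts.

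Enzymes of the lower part of the pathway were bright on every array and 1.73- to 2.14-fold higher on metastatic replicate 2 than on metastatic replicate 1. Triosephosphate isomerase (Tpi1) had 12.37 and 13.47 against 12.33 and 12.22. Phosphoglycerate kinase (Pgk1) had 13.06 and 14.05 against 13.12 and 13.02, and phosphoglycerate mutase (Pgam1) 12.18 and 13.05 against 12.16 and 11.91. Lactate dehydrogenase A (Ldha), which turns pyruvate into lactate, had 13.01 and 13.80 against 13.12 and 13.05. In these genes metastatic replicate 1 lay close to the non-metastatic arrays. Eno2, an enolase better known from neurons, had another pattern, with 7.73 and 8.26 against 7.05 and 6.87: metastatic replicate 1 was already 0.77 above the non-metastatic mean, and the gap between the metastatic arrays was 0.54.

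The enzymes that set the flux through glycolysis split as well. Pdk1, the kinase that shuts pyruvate dehydrogenase, had 7.11 and 8.97 against 7.48 and 7.43, and gaps of 2.53, 3.38 and 0.44 on its 3 dimmer probe sets, the last of them the dimmest (mean 3.83). Pfkfb3, which makes the activator fructose 2,6-bisphosphate, had 5.76 and 7.75 against 6.04 and 6.31. For both, on these brightest probe sets, metastatic replicate 1 was the lowest of the 4 arrays and metastatic replicate 2 the highest. Pfkfb3 has a second, dimmer probe set (mean 5.72) with a gap of only 0.13. On that probe set, and on those of Pdk1 with gaps of 2.53 and 3.38, a non-metastatic array was the lowest. Pfkfb4, a related enzyme and a known hypoxia target, had 9.40 and 9.67 against 9.71 and 10.05, so that both metastatic arrays were below both non-metastatic ones.

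Among the sensors, Egln3 had 6.03 and 9.26 against 6.53 and 7.35, the widest spread of the HIF pathway members. Metastatic replicate 1 was lowest and metastatic replicate 2 highest. The lowest value lies close to the all-probe-set median of 5.95, so the gap of 3.22 may be limited by background and has no fold here. The second probe set of Egln3 had the same order, with a gap of 2.45 and a value of 5.32 on metastatic replicate 1. Egln1, the main oxygen sensor, had 8.53 and 9.76 against 8.71 and 8.74, and gaps of 1.23 and 1.30 on its 2 probe sets.

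The HIF alpha subunits went opposite ways between the metastatic arrays. Hif1a had 12.26 and 12.79 against 11.86 and 11.88, higher on both metastatic arrays, and its 4 probe sets had gaps of 0.52 to 0.63, though on the dimmest (mean 5.55) metastatic replicate 1 was the lowest array. Epas1, which encodes HIF-2 alpha and is prominent in endothelium, had 10.31 and 8.88 against 9.79 and 9.29. It was highest on metastatic replicate 1 and lowest on metastatic replicate 2, 2.69-fold apart, and its other probe set had a gap of -1.04. Messenger levels do not measure the HIF proteins, which are controlled by degradation.

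Bnip3, a mitochondrial outer membrane protein that recruits the autophagy machinery, had 9.92 and 12.35 against 9.29 and 9.45. Metastatic replicate 2 was 7.86-fold above the non-metastatic mean, and metastatic replicate 1 was 0.54 log2 units above it. Higd1a, a small mitochondrial protein of the respiratory chain, had 11.12 and 12.34 against 11.15 and 11.15, with only metastatic replicate 2 apart.

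Of the remaining hypoxia-induced genes, Ankrd37, an ankyrin repeat gene, had 4.32 and 7.09 against 4.39 and 4.24. Its signal was below the all-probe-set median of 5.95 on 3 arrays and above it on metastatic replicate 2 only. Ndrg1, a stress-responsive gene, had 7.96 and 10.07 against 7.96 and 8.20, with gaps of 1.26 to 2.28 over its 5 probe sets. Both genes had metastatic replicate 1 level with the non-metastatic arrays.

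Mxi1, a MYC antagonist, had 7.96 and 9.54 against 8.22 and 7.70. Ero1a, an oxidase of disulfide formation in the endoplasmic reticulum, had 10.37 and 11.74 against 10.29 and 10.11. Kdm3a, a histone demethylase, had 8.62 and 9.50 against 8.33 and 8.30. Ero1a and Kdm3a were a little higher on metastatic replicate 1 than on both non-metastatic arrays, by 0.17 and 0.30 relative to their mean, and Mxi1 was not. Ddit4, an inhibitor of mTOR, had 10.71 and 11.33 against 10.59 and 9.88, with the non-metastatic arrays 0.71 apart, more than the 0.61 between the metastatic ones.

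Several textbook HIF targets did not follow. Adm, which encodes the vessel peptide adrenomedullin, was bright and nearly level, with 12.78 and 13.10 against 12.76 and 13.01. The carbonic anhydrase genes Car9 and Car12, which buffer acid at the cell surface, were dim: Car9 had 5.19 and 5.89 against 5.72 and 5.76, and Car12 had 4.61 and 4.86 against 5.00 and 4.82. No level of these 2 genes exceeded the all-probe-set median of 5.95, so a difference may not be detectable at such signals.

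**Figure D2:**
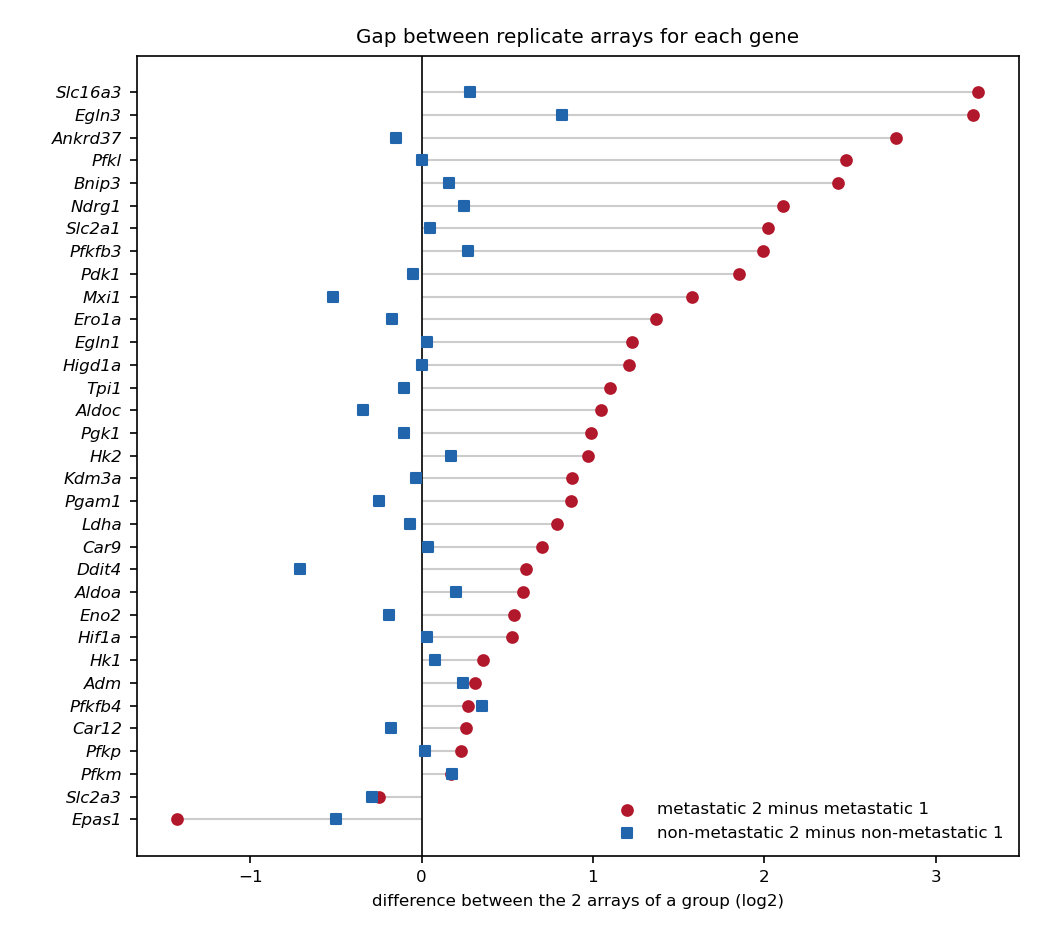
Difference between the 2 arrays of each group (log2, replicate 2 minus replicate 1) for the 33 genes, ordered by the metastatic gap; circles are the metastatic and squares the non-metastatic pair. The metastatic gap reaches 3.25 for Slc16a3 and is below 0 only for Slc2a3 and Epas1, while every non-metastatic gap lies between -0.71 and 0.82.

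Compared by group, 30 of the 33 members had a higher mean in the metastatic group (49.9% of all genes), with a median difference of 0.59 against 0.00 over all genes. Pfkfb4, Car9 and Car12 were lower. Both metastatic arrays were above both non-metastatic arrays for 14 members and below them for 1, Pfkfb4, where 17.2% and 17.3% of all genes were. None of the 33 passed limma with Benjamini-Hochberg adjustment over 45037 probe sets (0.0% of genes were called). At an unadjusted p under 0.05, 7 members were higher and 0 lower, where 2.63% and 4.07% of all genes were. With 2 arrays a group, the smallest two-sided p of an exact permutation test is 0.333.

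The largest differences belonged to the genes that metastatic replicate 2 lifted. Bnip3 differed by 1.76 (SE 0.73), with 11.13 ± 1.72 against 9.37 ± 0.11 (mean ± SD, n = 2 each), a limma adjusted p of 0.831. Slc16a3 differed by 1.59 (SE 0.97; adjusted p = 0.930) and Pfkl by 1.45 (SE 0.74; adjusted p = 0.892). The SD of the metastatic group was 2.30 for Slc16a3 and 1.75 for Pfkl, more than the difference between groups, and for Bnip3 it was close to that difference. The median SD over the members was 0.70 for the metastatic arrays and 0.12 for the non-metastatic ones, against 0.12 and 0.08 over all genes.

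The 7 members with an unadjusted p under 0.05 were others: Eno2, Aldoc, Pfkp, Hif1a, Aldoa, Ddit4 and Kdm3a. In these both metastatic arrays were above both non-metastatic arrays and the metastatic replicates lay closer together. Eno2 had the smallest p of the set, with 7.99 ± 0.38 against 6.96 ± 0.13, a difference of 1.03 (SE 0.20), an unadjusted p of 0.00231 and a limma adjusted p of 0.387. Hif1a differed by 0.66 (SE 0.19; adjusted p = 0.627), Pfkp by 0.45 (SE 0.13; adjusted p = 0.624), Aldoa by 0.73 (SE 0.21; adjusted p = 0.637) and Aldoc by 1.26 (SE 0.34; adjusted p = 0.610). Without metastatic replicate 2 these 5 differences stood at 0.77 for Eno2, 0.39 for Hif1a, 0.33 for Pfkp, 0.43 for Aldoa and 0.74 for Aldoc. For Aldoc the non-metastatic values, 6.31 and 5.96, lie near the all-probe-set median of 5.95. Its second probe set, which is dim (mean 4.23), differed between the groups by only 0.03 (SE 0.11).

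The group difference of the set rested on metastatic replicate 2. Without it the median difference was 0.01, with 18 of 33 members higher, and 0 passed. Without metastatic replicate 1 the median was 1.09, and limma called 7 members, all higher (0.066% of all genes were called higher): Bnip3, Pfkl and Ankrd37 (adjusted p = 0.0292 each), Slc2a1 and Slc16a3 (adjusted p = 0.0312), Ndrg1 (adjusted p = 0.0413) and Pdk1 (adjusted p = 0.0423). The set was chosen with earlier results of these data known, so that fit is no independent check of it. That fit compares 1 metastatic array with 2 others and assumes that it varies like the non-metastatic pair. The direction turned without metastatic replicate 2 for Pgk1, Ldha, Hk2, Slc2a1, Slc16a3, Pdk1, Pfkfb3, Adm, Egln1, Egln3, Ndrg1 and Higd1a.

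**Figure D3:**
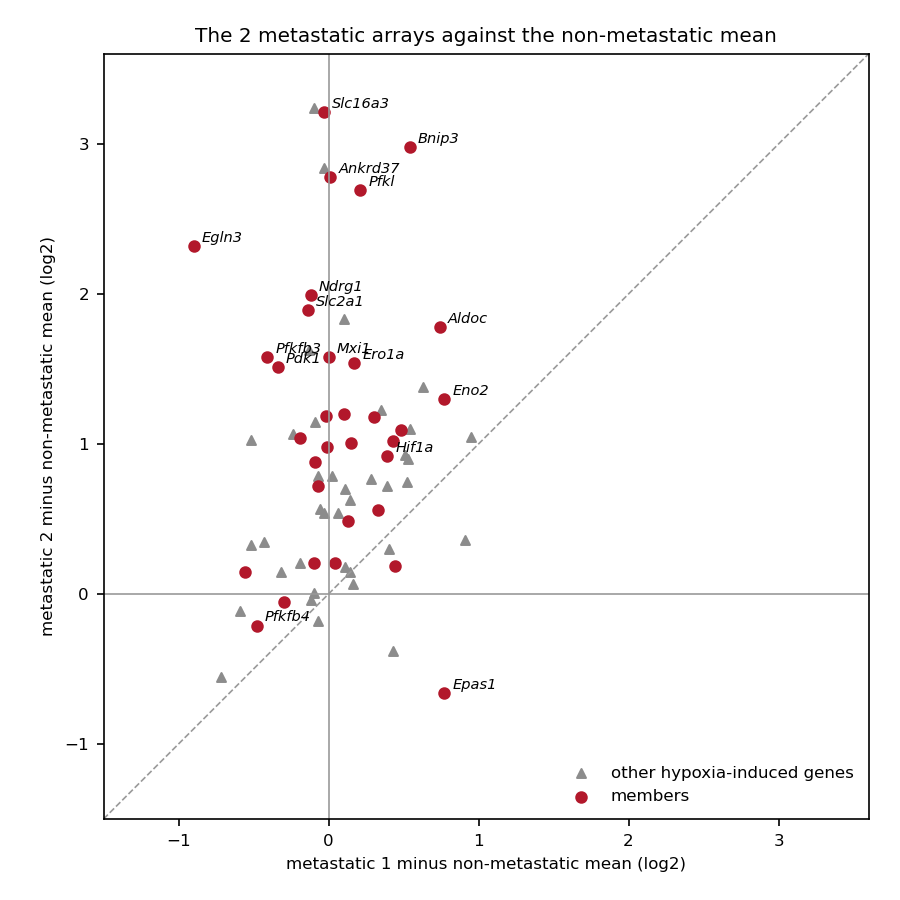
Each metastatic array against the mean of the non-metastatic arrays (log2), metastatic replicate 1 on the horizontal and metastatic replicate 2 on the vertical axis; red circles are the 33 members, grey triangles 38 other hypoxia-induced genes, and the dashed line marks equal shifts. Members spread up the vertical axis to 3.21 (Slc16a3) while staying between -0.90 and 0.77 on the horizontal axis.

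A list of 40 other hypoxia-induced genes, 38 of them measured, had the same pattern to a smaller degree. The list was drawn up with earlier results of these data known, so it is no independent check. Metastatic replicate 2 was the highest array for 28 of the 38, and the median gap between the metastatic arrays was 0.48. By group, 30 were higher and 8 lower, with a median difference of 0.37, and 0 passed. Ak4, a mitochondrial adenylate kinase, had 6.50 and 9.83 against 6.81 and 6.39, the largest gap of all 18193 genes at 3.33. Ndufa4l2, which dampens respiratory complex I under low oxygen, had 7.18 and 10.05 against 7.20 and 7.23. Ppp1r3b, a glycogen-targeting phosphatase subunit, had 6.03 and 7.79 against 6.30 and 6.02. Narf differed in another way, with 7.64 and 8.39 against 6.94 and 7.07. Vegfa, named after its values were seen, had 8.92 and 9.80 against 8.58 and 8.55.

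The HIF machinery and the neighbouring routes of carbon had small median gaps. Over 15 other HIF pathway genes, among them Arnt, Vhl and Hif1an, the median gap was 0.12, and the largest were 0.42 for Crebbp and 0.39 for Vhl. Over 30 other genes of glycolysis and pyruvate use it was 0.14. Pyruvate kinase (Pkm) was an exception in that list, with 12.78 and 13.62 against 12.60 and 12.63. Pyruvate carboxylase (Pcx) had a wider gap the other way, with 9.02 and 7.94 against 7.84 and 8.09. So did the pyruvate dehydrogenase phosphatase Pdp1, with 9.07 and 8.07 against 8.78 and 8.59. The pentose phosphate pathway (8 genes), the citric acid cycle (16) and autophagy and mitophagy (17) had median gaps of -0.12, -0.11 and -0.13. In the pentose phosphate pathway Pgd, which oxidises 6-phosphogluconate, had 12.20 and 12.25 against 11.80 and 11.64, and Tkt, transketolase, had 12.99 and 12.80 against 12.54 and 12.36. For both genes each metastatic array was above each non-metastatic one, and neither passed (limma adjusted p = 0.487 and 0.645).

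**Figure D4:**
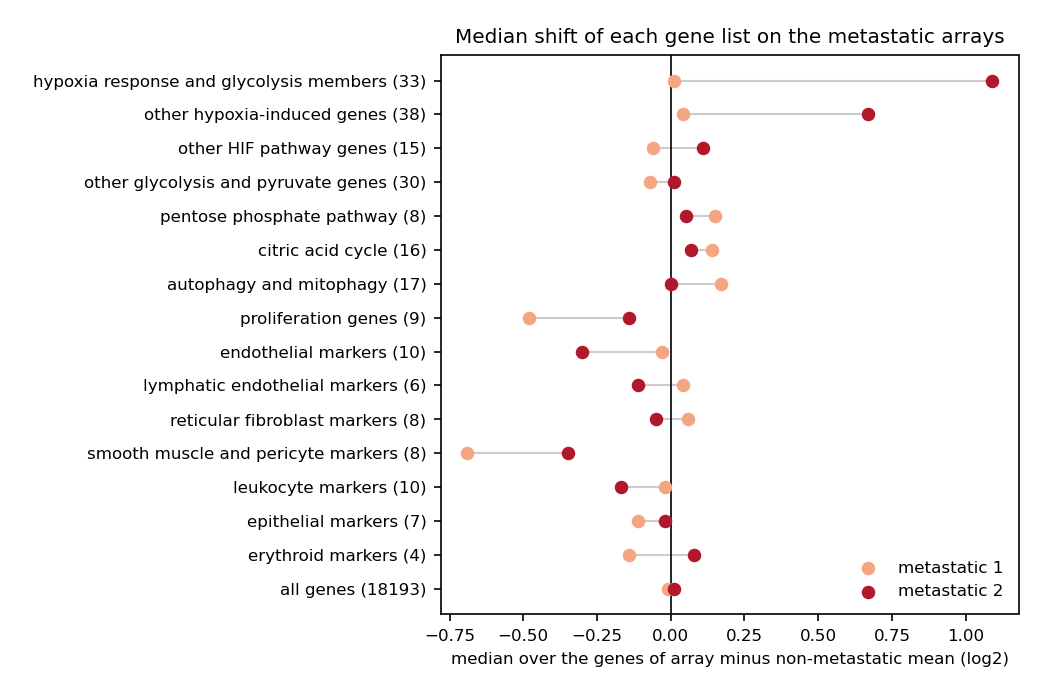
Median over the genes of each list (number of measured genes in brackets) of a metastatic array minus the non-metastatic mean (log2), for metastatic replicate 1 (light) and metastatic replicate 2 (dark). The members stand at 0.01 and 1.09 and the other hypoxia-induced genes at 0.04 and 0.67; proliferation genes and smooth muscle markers lie below 0 on both arrays.

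Marker lists were set beside this pattern. Proliferation genes were higher on metastatic replicate 2 than on metastatic replicate 1 for 9 of 9, with a median gap of 0.37, but both arrays were below the non-metastatic mean, by medians of -0.48 and -0.14. Smooth muscle and pericyte markers were higher on metastatic replicate 2 for 6 of 8, with summed linear signals of 17626 and 28637 on the metastatic arrays and 35529 and 33597 on the non-metastatic ones. Leukocyte markers were higher there for 4 of 10, with sums of 1345 and 1155 against 1799 and 1703, and Ptprc, the common leukocyte antigen, was at 4.01 to 4.28 on every array. Lymphatic endothelial markers were higher there for 1 of 6, with sums of 2146 and 2002 against 1799 and 1674. Those sums are carried by Pdpn, whose protein was used for capture. By group, 4 of the 6 genes had a lower mean in the metastatic group, with a median difference of -0.11. Endothelial markers were higher there for 5 of 10, with sums of 1576 and 1820 against 2593 and 2313. Reticular fibroblast markers were higher there for 4 of 8, with sums of 59587 and 62274 against 59714 and 64445. Erythroid markers, which matter because red cell precursors carry glycolytic and mitophagy genes, were higher there for 4 of 4, all within 0.63, with Hba-a1 at 4.27 to 4.38 on every array and sums of 138 and 172 against 162 and 153. Epithelial markers were higher there for 6 of 7, with sums of 852 and 1368 against 1022 and 1115, and Krt19 alone was over 1 unit apart. The part of these cell types in the members' pattern was not tested, and more cells of a type and more RNA per cell cannot be told apart in such bulk samples.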

How the data were processed

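Total RNA (3 ug) of 4 preparations was labelled with biotin and hybridized to Affymetrix arrays, per the labels' protocols. The authors deposited 1 log2 signal for each probe set, a scale read from the values themselves (3.10 to 14.87). How probes were summarised, and whether arrays were normalized to each other, is not given in the sources used here. Array medians differed by 0.116, above a limit of 0.1, so the arrays were quantile normalized. Of 45101 probe sets, 64 controls were left out. Of 45037, 34945 had 1 gene symbol, 932 several and 9160 none.

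The groups were compared with limma (lmFit and eBayes, two-sided) over all 45037 probe sets with 2 residual degrees of freedom, called at a Benjamini-Hochberg adjusted p under 0.05. Scripts were tested on simulated data. The members, lists and tests were chosen with earlier results of these data known. Named genes were every member and, of each further list, the 3 genes with the largest difference and the 3 with the largest gap, of which the text gives part. The p-values measure the spread between preparations. R 4.3.3, limma 3.58.1, Python 3.11.15 and matplotlib 3.10.9 were used. Alternatives were deposited values, centred medians, brighter probe sets, other probe sets per gene, a trend with robust moderation, a replicate block and each array left out.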

Additional observations from a re-analysis of the deposited data

How the results depend on the processing

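The wider gap of metastatic replicate 2 held under each scaling and choice of probe set tried: the median gap over the members was 0.91 with deposited values, 0.80 with centred medians (median of all genes -0.08, and Pfkm turned below 0), 0.98 over the 30 with brighter probe sets, 0.87 when all probe sets of a gene were averaged and 0.92 over the 26 with probe sets not marked as binding several transcripts. The median difference between groups ranged from 0.54 to 0.64 under these settings and from 0.01 to 1.09 without single arrays. The number of members whose groups do not overlap was 15 (14 above and 1 below, against 17.2% and 17.3% of all genes). It was 9 of 26 with probe sets not marked as binding several transcripts, where fewer genes are measured. Without single arrays it was 18 to 32, but 1 array against 2 overlaps less often. The share of all genes is given here only for all 4 arrays and without metastatic replicate 2. The other counts have no such share beside them and cannot be read as a result about the members. Without metastatic replicate 2 it was 26, with 15 above. Metastatic replicate 1 was above both non-metastatic arrays for 36.7% of all genes and below both for 40.8%. Members called numbered 0, and 0 to 7 without single arrays; probe sets called numbered 0 (2731 at an unadjusted p under 0.05), 5 with a trend and robust moderation, and 0 to 67 without single arrays. Same-numbered arrays deviated together (correlation 0.248), but the labels state no pairing; the replicate block called 145 probe sets, 25 of them higher. Differences that changed sign without single arrays, none called with all 4 arrays, ranged as follows, where the upper ends of Slc2a1, Slc16a3, Pdk1 and Ndrg1 were called without metastatic replicate 1: Pgk1 -0.01 to 0.98, Ldha -0.07 to 0.72, Hk2 -0.09 to 0.88, Slc2a1 -0.14 to 1.89, Slc16a3 -0.03 to 3.21, Pdk1 -0.34 to 1.51, Pfkfb3 -0.41 to 1.58, Adm -0.10 to 0.21, Egln1 -0.19 to 1.04, Egln3 -0.90 to 2.32, Ndrg1 -0.12 to 1.99, Car9 -0.56 to 0.15, Epas1 -0.66 to 0.77 and Higd1a -0.02 to 1.19. Genes below the all-probe-set median of 5.95 (Car9 and Car12 on all arrays, Ankrd37 on 3, Slc16a3 on 2 and Pfkfb3 on 1) are limited by signal over background.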

Other observations

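Among the 50 genes with the largest gaps from metastatic replicate 1 up to metastatic replicate 2, 12 were members (24.0% of the 50 and 36.4% of the members), and a further 7 were on the list of other hypoxia-induced genes. No member was among the 50 largest gaps in the opposite direction. The set and that list were chosen with earlier results of these data known, so these counts are no independent check. The genes named here were chosen after their values were seen. Muscle genes were also among these 50, and they followed another order of arrays: Acta1, skeletal muscle actin, had 8.42 and 11.19 on the metastatic arrays and 8.07 and 11.13 on the non-metastatic ones, and Myl1, a muscle myosin light chain, had 7.68 and 9.50 against 5.94 and 10.33. Over a list of 14 muscle genes, drawn up after seeing the data, the gap was above 0 for 14 in the metastatic pair and for 14 in the non-metastatic pair, with medians of 1.35 and 2.80, and summed linear signals of 1711 and 6097 against 994 and 7633. The members had a median gap of 0.00 in that non-metastatic pair.

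The genes with the largest gaps in the opposite direction were led by Adipoq, the adipocyte hormone adiponectin, with 9.04 and 4.52 against 8.40 and 5.66, and Scara5, a scavenger receptor of stromal cells, with 10.83 and 6.95 against 9.82 and 8.43. Pparg, the regulator of fat cell formation, had 10.68 and 8.52 against 8.07 and 8.53. Interferon-induced genes were there too, such as Ifit3 with 12.93 and 10.68 against 11.89 and 12.12 and Irf7 with 11.23 and 9.48 against 10.17 and 9.98. Over 7 adipocyte genes, also chosen after seeing the data, the median gap was -1.26, with summed signals of 19299 and 10050 against 9146 and 9915. Those sums are carried by Lpl and Fabp4, and the single genes differed in their order of arrays. Adipoq, Cd36 (6.94 and 4.44 against 5.87 and 4.91) and Fabp4 (12.22 and 10.95 against 11.27 and 11.70) were lowest on metastatic replicate 2. So was Lep, barely and at dim signals (4.64 and 4.26 against 4.36 and 4.27). Lpl (13.57 and 12.88 against 12.51 and 12.55), Pparg and Retn were not.

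Zfp395, a hypoxia-induced transcription factor gene outside the set, had 7.12 and 7.22 on the metastatic arrays and 6.11 and 6.24 on the non-metastatic ones. The gap was 0.10 in the metastatic pair, compared with 3.25 for Slc16a3 and 3.22 for Egln3.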
